A study of Homo sapiens with 16 samples.

Results

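FAS and the 4 TRAIL receptor genes TNFRSF10A, TNFRSF10B, TNFRSF10C and TNFRSF10D encode cell-surface receptors of the extrinsic route to apoptosis. All peaks within 50 kb of the bodies of these 5 genes were collected from the 8 deposited ChIP-seq peak lists, which gave 36 of 76863 peaks. Of these, 14 of 5699 were p53 peaks and 22 of 71164 were CTCF peaks. Overlapping peaks of the 4 libraries of a factor were merged into sites, and the 36 peaks formed 6 of 2980 p53 sites and 7 of 29064 CTCF sites.

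The libraries came from MCF10A, a non-tumorigenic human mammary epithelial cell line (labelled parental), and from MCF10A cells that carry the HRAS oncogene with the G12V substitution, hereafter G12V cells. The oncogene was delivered by lentiviral transduction together with a vector for green fluorescent protein, and carriers were selected with hygromycin. G12V is therefore 1 selected derivative of 1 line with an added copy of the oncogene, and the parental cells are not described as carrying an empty vector. Cells of both types received Nutlin, an inhibitor of the MDM2-p53 interaction that stabilises p53, before fixation for the p53 libraries and not for the CTCF libraries. Each factor had 2 replicate libraries per cell type, described by the study as biological replicates. The peak lists hold no expression values, so neither the epithelial identity of the cells nor the level of the receptors could be checked with them.

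FAS, the receptor for FAS ligand, and TNFRSF10A and TNFRSF10B, the death receptors DR4 and DR5 for the ligand TRAIL, hold an intracellular death domain. Ligand binding clusters the receptors, the adaptor FADD is recruited, and caspase-8 is activated at the membrane. TNFRSF10C (DcR1) and TNFRSF10D (DcR2) also bind TRAIL but lack a functional death domain and are known as decoy receptors. FAS and the TRAIL receptor genes are known targets of p53, which binds a sequence made of a pair of adjacent 10-base half-sites. CTCF is a zinc-finger protein known for binding at insulators and at the borders of chromatin domains.

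The following 3 stretches of reference sequence (GRCh37 primary assembly, plus strand, 5′ to 3′) show sites of FAS and of a gene of its pathway. The first is the p53 site of FAS, with its 20-base p53 motif in capitals (chr10:90751061-90751090). The second is the p53 site of CFLAR, the gene of a caspase-8 inhibitor of the same pathway, again with the motif in capitals (chr2:201983539-201983568). The third is the CTCF site downstream of FAS, with a 12-base CTCF motif in capitals (chr10:90789683-90789882).
FAS p53 site: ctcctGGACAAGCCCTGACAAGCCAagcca
CFLAR p53 site: cggagCAGCAGGTCTGAGCTTGTCCggcga
FAS CTCF site: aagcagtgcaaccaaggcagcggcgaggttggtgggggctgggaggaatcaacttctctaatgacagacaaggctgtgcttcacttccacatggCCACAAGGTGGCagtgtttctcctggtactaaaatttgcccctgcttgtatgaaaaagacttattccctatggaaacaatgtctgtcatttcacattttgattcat
Both p53 motifs deviate from the consensus at 2 positions, with the core C and G bases of each half-site intact, and the CTCF motif deviates at 1 position.

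The genes were taken from GENCODE on hg19 (GRCh37). FAS (ENSG00000026103) lies on the plus strand of chromosome 10 from 90750414 to 90775542. The other 4 lie side by side on chromosome 8, in the order TNFRSF10B (ENSG00000120889, 22877646 to 22926544, minus strand), TNFRSF10C (ENSG00000173535, 22960434 to 22974958, plus strand), TNFRSF10D (ENSG00000173530, 22993101 to 23021540, minus strand) and TNFRSF10A (ENSG00000104689, 23047965 to 23082615, minus strand). Because the genes are neighbours, their 50 kb surroundings overlap and a peak can count for up to 3 of them.

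The lists of p53 MCF10A replicates 1 and 2 held 1718 and 885 peaks, and those of p53 G12V replicates 1 and 2 held 477 and 2619. Depths recovered from the lists were 21.4, 20.1, 9.26 and 33.2 M (mega) reads in the same order, and 11.4 to 18.6 M for the CTCF libraries, whose lists held 11346 to 27678 peaks. Coverage at a summit is given as RPM, the summit reads divided by this depth in M reads. Fragment length was taken as the width of the narrowest peak of each list and was not measured, and the recovered depths rest on it. It was 147 and 113 bp for the MCF10A p53 libraries, and 279 and 180 bp for the G12V ones. Longer fragments add reads to a summit, so coverage moved with this value as well as with cell type, and its part in the coverage differences given here was not tested. Peak names of p53 G12V replicate 1, the shallowest of these libraries with the shortest list, contain the tag "old", unlike those of any other list. The coverage and percentile differences are therefore also given without this library.

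The first question was where p53 was bound at these genes. Each of the 5 genes had a p53 peak summit within 1 kb downstream of its own start in at least 1 library, and 1 further p53 site lay outside the genes, in an intron of RHOBTB2. Over the genome, 0.821% of 20090 protein-coding genes had a p53 summit within 1 kb of their start in any library, and 18.9% had a p53 site within 50 kb. A site called in all 4 p53 libraries lay within 50 kb of 2.41% of protein-coding genes, and FAS, TNFRSF10B and, through the TNFRSF10B site, TNFRSF10C were among these. The genes were chosen with results of these data known, so these shares describe them and are not a test.

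The p53 site of FAS (chromosome 10, 90750378 to 90751344) was called in all 4 libraries, with its strongest summit 673 bp downstream of the FAS start. It lies in an intron of the FAS coding transcripts. On the opposite strand the same bases belong to the 5′ untranslated end of an ACTA2 transcript whose start is 2 bp from the summit, and to an exon of the lncRNA ENSG00000286116. The motif printed above is centred 11 bp from the summit.

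The site of TNFRSF10B (chromosome 8, 22925671 to 22926560) was also called in all 4 libraries, 404 bp downstream of the start, in an intron of the gene and of the antisense lncRNA ENSG00000246130. The site of the decoy receptor gene TNFRSF10D (23020936 to 23021486) lay 350 bp downstream of the start, in an intron, and was called in 3 libraries, with p53 G12V replicate 1 missing. That of the other decoy gene, TNFRSF10C (22960674 to 22960911), lay in an intron 339 bp downstream and was called in MCF10A replicate 1 alone. The site of TNFRSF10A (23081997 to 23082499) lay 309 bp downstream, in coding sequence or an intron depending on the transcript, and was called in G12V replicate 2 alone. The site in RHOBTB2 (22871914 to 22872262), which ends 5384 bp past the 3′ end of TNFRSF10B, was likewise called only in G12V replicate 2. Of all p53 sites of the genome, 11.1% were called in all 4 libraries, as were 2 of these 6.

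**Figure D1:**
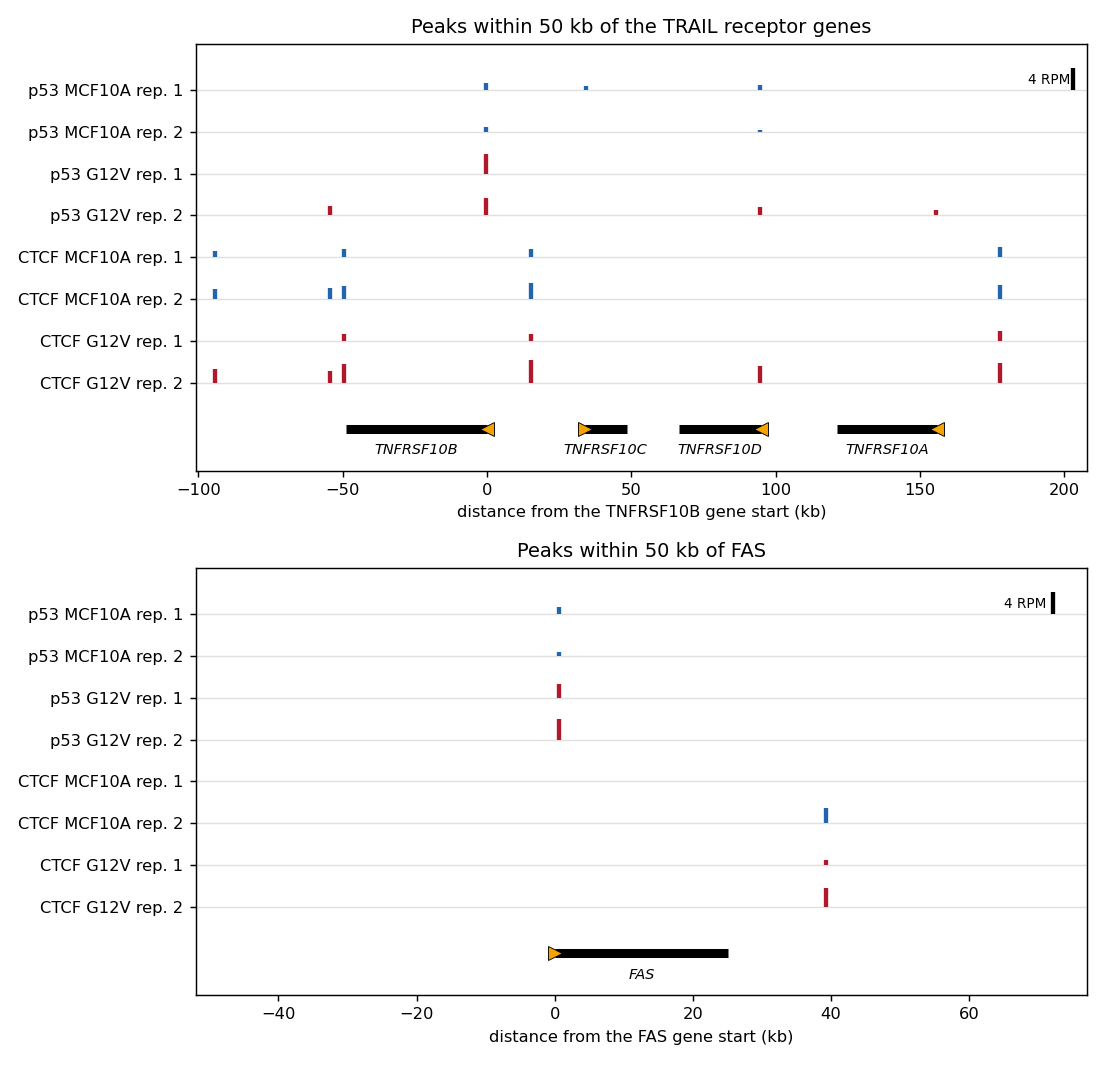
Peaks of the 8 libraries near the TRAIL receptor genes (upper panel) and FAS (lower panel). The horizontal axis gives kb from the start of TNFRSF10B or FAS in the direction of the plus strand, each bar is a peak summit with its height in RPM (scale bar), black boxes are gene bodies and arrowheads mark gene starts (blue, MCF10A, and red, G12V). The p53 peaks sit at the gene starts, except 1 peak of G12V replicate 2 past the end of TNFRSF10B.

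In each TRAIL receptor gene, the first 1000 bases held a 20-base stretch similar to the TNFRSF10B motif, farthest from the gene start in TNFRSF10A. The stretch was centred 400 bp from the start in TNFRSF10B, 378 bp in TNFRSF10C, 361 bp in TNFRSF10D and 465 bp in TNFRSF10A. It differed from that of TNFRSF10B at 1 base in TNFRSF10C and at 2 bases in TNFRSF10D and in TNFRSF10A. Against the p53 consensus, the mismatches numbered 2 in TNFRSF10B, 3 in TNFRSF10C, 3 in TNFRSF10D and 4 in TNFRSF10A, and the core bases were intact in all 4 genes. The TNFRSF10A stretch lay 156 bp from the summit of its peak, whereas the distance was 4 to 39 bp in the other 3 genes. It fell outside the 150 bp centred on the summit in which motifs were searched. Its 4 mismatches also exceeded the 3 that the search allowed.

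The 300 bases around these stretches were alike among the 4 genes. Identity was highest between the decoy genes TNFRSF10C and TNFRSF10D, at 87.0% of aligned bases, and lowest between TNFRSF10A and TNFRSF10B, at 75.2%. Near-identical sequence can cost reads when only unique alignments are kept, as the authors did. Around each of the 4 summits, 0 of the 521 words of 80 bases, the read length of the p53 libraries, occurred again in the locus, so an exactly matching read of that length has a single place in the locus. The count covers exact matches within the locus only. It cannot show whether reads were lost to places that match with mismatches or lie elsewhere in the genome.

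A p53 motif, allowing at most 3 mismatches outside the core, was present within 150 bp centred on the summit at 5 of the 6 p53 sites, against 70.4% of all p53 sites and 0.973% of windows beside them. The exception was TNFRSF10A. The AP-1 motif (TGACTCA or TGAGTCA, reverse complements of each other) was at 0 of the 6 sites, against 6.71% of all p53 sites. Both motifs were searched on both strands. A match describes the letters in the window and is no evidence of a bound factor.

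The second question was whether p53 binding at these genes differed between the cell types. p53 coverage at the FAS and TNFRSF10B sites was higher in both G12V libraries than in both MCF10A libraries, and among the p53 sites common to all libraries these 2 sites stood at the weaker end in MCF10A and in the middle or upper part in G12V. The number of p53 peaks near the 5 genes did not separate the cell types. The MCF10A lists held 4 and 3 and the G12V lists 2 and 5, or 3.5 ± 0.707 and 3.5 ± 2.12 (SD, n = 2 each), with a difference of 0 (exact two-sided permutation test over 6 assignments, p = 1). Leaving out G12V replicate 1 moved the difference to 1.5, and leaving out G12V replicate 2 to −1.5. All 5 genes had a p53 peak within 50 kb in every library but G12V replicate 1, where 3 had one. Because the surroundings overlap, some of these peaks lay at a neighbouring gene. A summit within 1 kb of the gene's own start was called at 4 and 3 genes in MCF10A replicates 1 and 2. In G12V replicates 1 and 2 it was called at 2 and 4 genes. The share of all protein-coding genes was not counted per library.

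At FAS the summit held 27 and 16 reads in MCF10A replicates 1 and 2, and 24 and 128 reads in G12V replicates 1 and 2. As RPM, the MCF10A values were 1.26 and 0.796 and the G12V values 2.59 and 3.86. The cell types did not overlap, and both G12V values lay above both MCF10A values. The difference of mean log2 coverage was 1.66, with SDs of 0.47 in MCF10A and 0.41 in G12V (n = 2 each). The exact permutation test gave p = 0.333, which is the smallest value this test can give with 2 against 2 libraries, so it cannot reach 0.05 at any of these sites. With any 1 library left out the log2 difference stayed between 1.32 and 1.99, and it was 1.94 without G12V replicate 1.

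At TNFRSF10B the summit held 29 and 16 reads in MCF10A and 34 and 109 reads in G12V. The coverage (RPM) was 1.36 and 0.796 for MCF10A against 3.67 and 3.28 for G12V cells, again without overlap. The mean log2 difference was 1.74 (exact permutation test, p = 0.333), and 1.36 to 2.13 with any 1 library left out (1.66 without G12V replicate 1). Unlike at FAS, the shallow G12V replicate 1 had the higher of the G12V values. Over the genome, however, both G12V coverages exceeded both MCF10A ones at 60.5% of the 306 shared sites with recovered reads, so the direction at these genes was that of most shared sites.

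The other p53 sites had lower coverage. TNFRSF10D held 0.982 and 0.348 RPM in MCF10A and 1.57 in G12V replicate 2. The value of 0.348 comes from 7 reads, the fewest that could be called in that library, and this peak was the last of the 885 in its list. In G12V replicate 1, where no TNFRSF10D peak was called, the smallest callable summit was 9 reads, or 0.972 RPM. Of the values in the other libraries, that of MCF10A replicate 2 lay below this limit, that of MCF10A replicate 1 close to it and that of G12V replicate 2 above it.

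TNFRSF10C reached 0.655 RPM (14 reads) in MCF10A replicate 1, above the limit of 0.348 in MCF10A replicate 2 and of 0.392 in G12V replicate 2, neither of which had a peak there. It was below the limit of G12V replicate 1. TNFRSF10A reached 1.08 (36 reads) and the RHOBTB2 site 1.78 (59 reads) in G12V replicate 2. Both were above the limits of the other 3 libraries, 0.374, 0.348 and 0.972. These limits hold for the genome-wide background, and a higher local background raises them, as at FAS in MCF10A replicate 2, where the background was 2.87 reads.

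**Figure D2:**
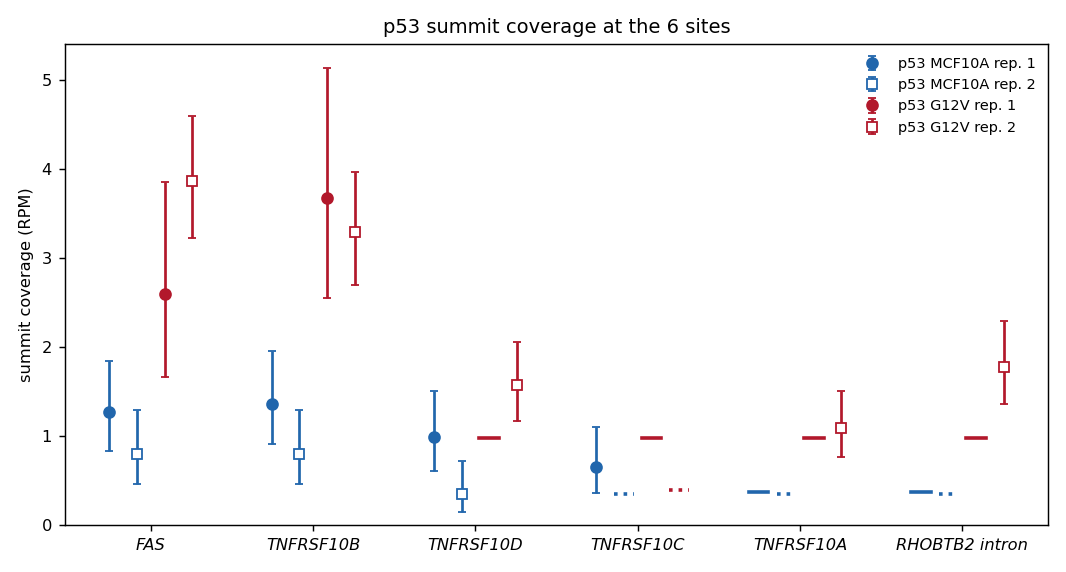
Summit coverage of p53 at the 6 sites in RPM, with exact 95% Poisson intervals that cover counting error only. Circles are replicate 1 and squares replicate 2 (blue, MCF10A, and red, G12V), and where a library had no peak a short line marks the smallest coverage it could have called at genome-wide background. At FAS and TNFRSF10B the G12V points lie at 2.59 to 3.86 and the MCF10A points at 0.796 to 1.36.

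The within-list rank of the q-value showed the same order. FAS ranked 591 of 1718 and 832 of 885 in the MCF10A lists and 129 of 477 and 150 of 2619 in the G12V lists. As percentiles, where 100 is the strongest peak, the MCF10A values were 65.6 and 6.05 and the G12V values 73.1 and 94.3. The deposited fold enrichment over local background was 11.5 and 4.39 in the MCF10A libraries, and in the G12V libraries it was 12.8 and 29.9. The cell types did not overlap, but the MCF10A replicates were farther from each other than MCF10A replicate 1 was from G12V replicate 1. The difference of the mean percentiles was 47.8. With any 1 library left out it ran from 18.0 (MCF10A replicate 2) to 77.6 (MCF10A replicate 1), and without G12V replicate 1 it was 58.5.

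TNFRSF10B ranked 544.5 of 1718 and 427 of 885 in MCF10A, and 68.5 of 477 and 204 of 2619 in G12V, where tied peaks share a mean rank. The MCF10A percentiles were 68.3 and 51.8 and the G12V percentiles 85.7 and 92.2, and the fold enrichments were 11.8, 9.23, 17.9 and 26.7. The difference of the mean percentiles was 28.9, and 32.2 without G12V replicate 1. Averaged over FAS and TNFRSF10B, the percentile was 48.0 ± 26.9 for MCF10A against 86.3 ± 9.80 for G12V cells (SD, n = 2 libraries each), a difference of 38.4 (exact permutation test, p = 0.333). Without MCF10A replicate 2 the value was 19.3, and without G12V replicate 1 it was 45.3. Both G12V percentiles exceeded both MCF10A ones at these 2 sites and at 12.7% of the 332 p53 sites called in all 4 libraries.

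Percentiles depend on how many weak peaks a list holds, so the 332 shared sites were also ranked among themselves, an alternative chosen after the data had been seen. FAS took ranks 279 and 319.5 in the MCF10A libraries and ranks 114.5 and 132 in the G12V libraries, where 1 is the strongest. TNFRSF10B took ranks 270.5 and 242 in the former and 60.5 and 170 in the latter. In percentiles among the shared sites, FAS stood at 16.1 and 3.92 in MCF10A and at 65.7 and 60.4 in G12V. TNFRSF10B stood at 18.7 and 27.3 in MCF10A and at 81.9 and 48.9 in G12V. The difference of the 2-gene means was 47.7 (16.5 ± 1.28 against 64.2 ± 13.5, SD, n = 2 each, exact permutation test, p = 0.333), larger than the SD of either cell type. At 28.0% of the shared sites both G12V ranks were above both MCF10A ranks.

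**Figure D3:**
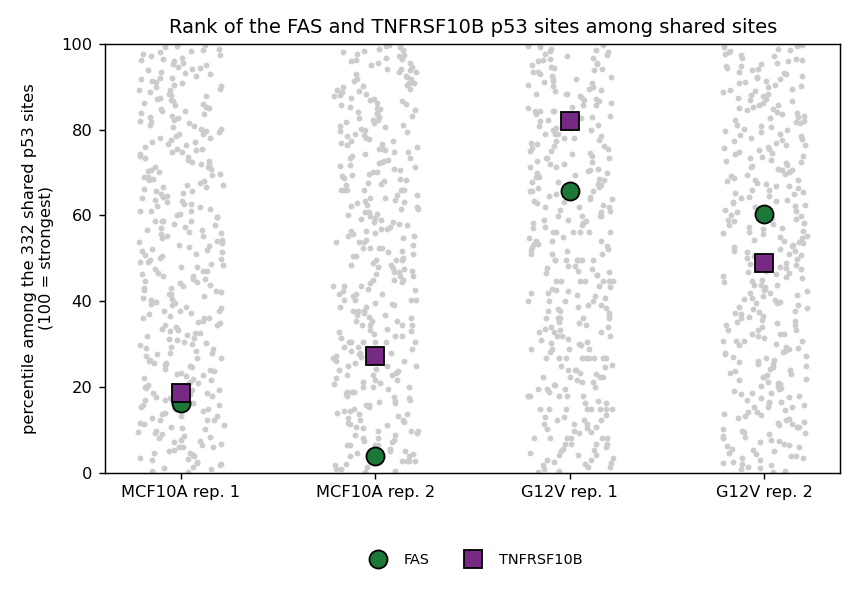
Percentile of each of the 332 shared p53 sites among themselves in the 4 p53 libraries, where 100 is the strongest (grey points, spread sideways for legibility). The FAS site (green circles) and the TNFRSF10B site (purple squares) sit between 3.92 and 27.3 in MCF10A and between 48.9 and 81.9 in G12V.

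Coverage was also divided by the median of the shared sites of each library, which was 2.24 and 1.24 RPM for the MCF10A libraries and 2.48 and 3.31 for the G12V libraries. FAS stood at 0.563 and 0.640 of that median in MCF10A and at 1.04 and 1.16 in G12V. TNFRSF10B stood at 0.604 and 0.640 in MCF10A and at 1.48 and 0.991 in G12V. Thus both sites were weaker than the typical shared site in MCF10A and close to or above it in G12V. The log2 differences were 0.88 at FAS and 0.96 at TNFRSF10B (exact permutation test, p = 0.333 each), or 0.96 and 0.67 without G12V replicate 1. At 34.6% of 306 shared sites both G12V values were above both MCF10A ones.

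When the p53 lists were cut to equal length by keeping the top 477 peaks of each, FAS remained in both G12V lists and in neither MCF10A list, a pattern that 9.78% of the 849 sites of these lists had. TNFRSF10B remained in MCF10A replicate 2 and both G12V lists. None of the other 4 p53 sites was in any of the 4 reduced lists.

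Sites elsewhere with a like pattern of percentiles were sought among the shared p53 sites. Nearest to FAS were sites near SCHIP1, DERA and FHL2, with mean absolute differences of 3.50, 5.11 and 5.98 percentile points over the 4 libraries. Nearest to TNFRSF10B were sites near TRIM55, BAX and LIF, at 4.13, 5.44 and 5.72 points. BAX encodes a pro-apoptotic protein of the mitochondrial route, and its site (chromosome 19, 49457915 to 49458779) lay 283 bp from the start of a coding transcript. Its MCF10A percentiles were 74.3 and 42.8 and its G12V percentiles 84.7 and 98.0.

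The wider pathway was described with a list of 16 genes for ligands, adaptors, caspases, inhibitors and other death domain receptors. A p53 site lay within 50 kb of 5 of the 16, against the 18.9% of all protein-coding genes, and 1 of the 16 had a site called in all 4 libraries. That site lay 32416 bp upstream of TRAF2, an adaptor of the TNF receptors, nearest to the start of PHPT1, and lacked a p53 motif. CFLAR had a site 2713 bp downstream of its start, in the gene and with the motif printed above, in G12V replicate 2 alone. PIDD1, which encodes a p53-induced protein with a death domain, had a site 5346 bp downstream of its start in MCF10A replicate 1 and G12V replicate 2. The PIDD1 site lacked a p53 motif. The sites near the receptor genes TNFRSF1A and TNFRSF25 also lacked it and were closer to the starts of SCNN1A and HES2. The other 11 genes, among them FASLG, TNFSF10 (the gene of TRAIL), FADD, CASP8 and CASP10, had no p53 site within 50 kb, at the depth of these libraries.

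The third question was where CTCF was bound around the genes and whether this changed with HRAS. CTCF flanked the TRAIL receptor cluster on both sides with sites called in all 4 libraries, and neither its peak counts near the 5 genes nor its mean rank over the shared sites separated the cell types. At 2 of the 3 shared CTCF sites, taken alone, both G12V percentiles within the lists were above both MCF10A ones. How many of the 8006 CTCF sites called in all 4 libraries had this order was not counted. Ranked among those 8006 sites, the cell types overlapped at both places. Peaks near the 5 genes numbered 4 and 6 in MCF10A and 4 and 8 in G12V, or 5 ± 1.41 and 6 ± 2.83 (SD, n = 2 each, difference 1, exact permutation test, p = 1). That difference was 3 when G12V replicate 1 was left out and −1 when G12V replicate 2 was. Of the 7 CTCF sites, 3 were called in all 4 libraries, against 27.5% of all CTCF sites. A CTCF site lay within 50 kb of all 5 genes, as it did for 85.7% of protein-coding genes. For TNFRSF10D this was a site called in G12V replicate 2 alone. A site of all 4 libraries lay within 50 kb of TNFRSF10B, TNFRSF10C and TNFRSF10A, as it did for 51.8% of protein-coding genes.

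The first of the shared CTCF sites (chromosome 8, 22876736 to 22877192) ended 454 bp past the 3′ end of TNFRSF10B, where an untranslated exon of RHOBTB2 is annotated. Its MCF10A percentiles were 41.1 and 38.0 and its G12V percentiles 48.1 and 57.3, with both G12V values the higher ones (difference 13.2, exact permutation test, p = 0.333). Ranked among the CTCF sites called in all 4 libraries, it stood at 33.4 and 14.6 in MCF10A and 38.0 and 17.3 in G12V. On that scale the cell types overlapped. The second (22941593 to 22942021) lay 15266 bp upstream of the TNFRSF10B start, between TNFRSF10B and TNFRSF10C. A coding transcript of ENSG00000284956 starts 106 bp from its summit. This site stood at 80.6 and 81.0 in MCF10A, and at 30.7 and 88.5 in G12V, so the G12V replicates lay on either side of MCF10A. The difference of −21.3 was 7.64 when G12V replicate 1 was left out. The third (23103618 to 23104614) lay in CHMP7, 21749 bp upstream of the TNFRSF10A start. A coding transcript of CHMP7 starts 192 bp from its summit. This site stood at 70.3 and 56.1 in MCF10A and 84.2 and 82.2 in G12V (difference 20.0, exact permutation test, p = 0.333). Among the CTCF sites called in all 4 libraries, it stood at 63.0 and 29.5 in MCF10A and 78.8 and 54.4 in G12V, again with overlap. G12V replicate 2 had 2 peaks at this site. The mean over the 3 sites was 61.2 ± 3.98 for MCF10A against 65.2 ± 15.3 for G12V cells (SD, n = 2 libraries each), a difference of 3.95, smaller than the SD of either cell type (exact permutation test, p = 1). It was 14.8 when G12V replicate 1 was left out and −6.87 when G12V replicate 2 was.

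A CTCF motif with at most 1 mismatch was within 150 bp centred on the summit at 5 of the 7 sites, against 52.1% of all CTCF sites and 1.22% of windows beside them. The sites without it were the CHMP7 site and the site in TNFRSF10D. On chromosome 8 the motifs of the sites at 22832056 and 22941593 were on the plus strand, and those of the sites at 22871876 and 22876736 on the minus strand.

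FAS had 1 CTCF site within 50 kb (chromosome 10, 90789546 to 90789929), printed above, 14004 bp past its 3′ end and outside annotated genes. It was called in MCF10A replicate 2 and in both G12V libraries, with 2.79, 0.956 and 3.42 RPM and percentiles of 76.3, 17.6 and 66.3. The MCF10A library without a peak there could have called 0.537 RPM at genome-wide background. On the upstream side the nearest CTCF sites fell just outside the limit, at 54922 bp (all 4 libraries) and 57620 bp from FAS, and near TNFRSF10A the next sites were 62729 and 70990 bp away. The outermost CTCF site inside the limit lay 45192 bp past the end of TNFRSF10B.

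p53 and CTCF peaks met at 2 places. In TNFRSF10D, the CTCF peak of G12V replicate 2 (23020887 to 23021245, percentile 57.0) overlapped the p53 site and lacked a CTCF motif. In the RHOBTB2 intron, the p53 peak of G12V replicate 2 overlapped a CTCF site of MCF10A replicate 2 and G12V replicate 2 (22871876 to 22872219, percentiles 50.4 and 36.3), and both motifs were present. Thus 2 of the 6 p53 sites overlapped a CTCF site, against 3.09% of all p53 sites. In each overlap 1 of the factors was called in a single library. The CTCF cells had not received Nutlin, so the factors were not mapped under the same condition.

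**Figure D4:**
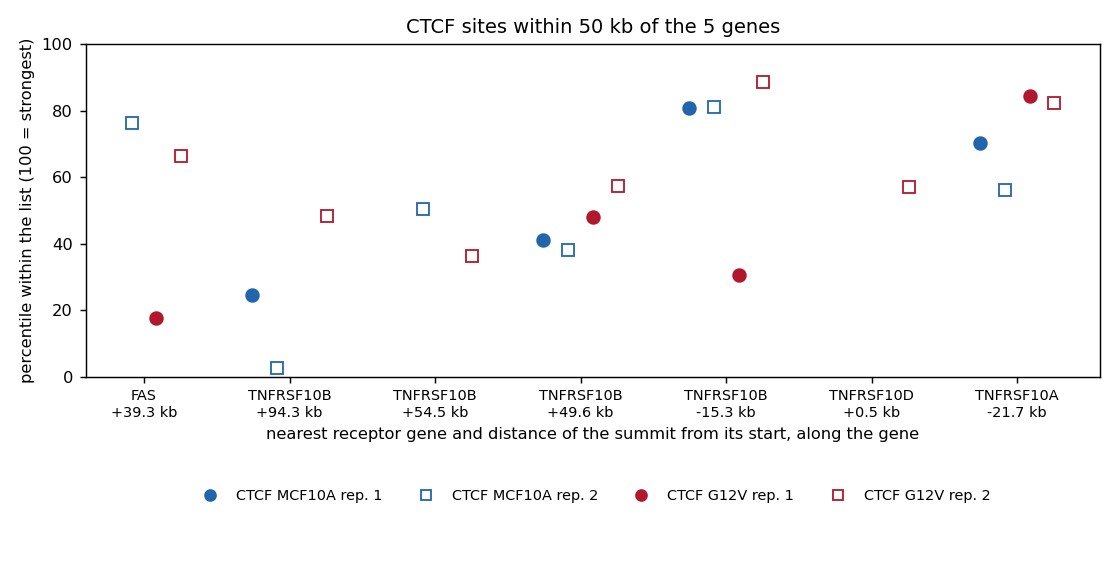
Within-list percentile of the 7 CTCF sites (100 is the strongest peak) in the 4 CTCF libraries, ordered by position, with distance along the gene from the start of the nearest receptor gene. Circles are replicate 1 and squares replicate 2 (blue, MCF10A, and red, G12V), and a missing symbol means that no peak was called. At the site 15.3 kb upstream of TNFRSF10B, G12V replicate 1 sits at 30.7 and the other libraries at 80.6 to 88.5.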

How the data were processed

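Each deposited list was called on 1 ChIP library. The authors aligned reads to hg19 with Bowtie, kept unique alignments and called peaks with MACS at default settings against an input library. Per peak the deposited lists give a score (10 times the −log10 q, truncated), the fold enrichment (a ratio), the −log10 p and −log10 q, and, as another value, the summit offset. Inputs were not analysed here on their own. Members, gene lists and tests were chosen with earlier results of these data known.

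Groups came from the sample titles. Peaks were ranked within a list by −log10 q, and peaks overlapping by at least 1 bp across libraries formed a site. Summit reads, background and depth were solved from the fold and p-value of each peak up to a −log10 p of 200, for a mappable genome of 2.7 Gb, which succeeded for 99.0% to 100% of peaks per library. Depth also used the width of the narrowest peak of the list as fragment length. On 3 simulated libraries of 1500 peaks, 100% of read numbers were recovered exactly. Intervals are exact 95% Poisson intervals and cover counting error only. Peaks below the q-value limit of 5% are not listed, so depth limits what a list shows.

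Genes and transcripts came from GENCODE release 44 on GRCh37, and sequence from the GRCh37 primary assembly. Named genes were the 5 receptor genes, the 16 pathway genes, the nearest coding gene of a site, and the 3 shared sites most alike in percentile. The test between cell types was the exact two-sided permutation of group labels, with 6 assignments. Its p-value is the share of assignments with a difference of means at least as large in size as the observed one. It does not measure the spread between the 2 libraries of a group. Alternatives were windows of 10 and 100 kb, a −log10 q of at least 5, lists of equal length, summits within 100 bp, each library left out, and a replicate block. Ranks among shared sites, summit coverage and its ratio to the shared median were added after the data had been seen. Analyses used Python 3.11.15, pandas 2.3.3, SciPy 1.17.1, NumPy 2.4.6, Biopython 1.88 and samtools 1.23.1.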

Additional observations from a re-analysis of the deposited data

How the results depend on the processing

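The difference in p53 peaks near the 5 genes (G12V minus MCF10A) was 0 as deposited and in windows of 10 and 100 kb. It was 1 with a −log10 q of at least 5, 1.5 in lists of equal length, and −1.5 to 1.5 with 1 library left out, the extremes being without G12V replicate 2 and without G12V replicate 1. The CTCF peak difference of 1 became −0.5 in lists of equal length and −1 to 3 with 1 library left out, again without G12V replicates 2 and 1. The p53 percentile difference over FAS and TNFRSF10B was above 0 under every alternative that gave a value, and 19.3 without MCF10A replicate 2. With a −log10 q of at least 5 it was 33.6 and rests on TNFRSF10B alone, since the FAS peak of MCF10A replicate 2 dropped out. Lists of equal length gave none because no p53 site of these genes stayed in all 4. The CTCF percentile difference of 3.95 turned to −0.267 in lists of equal length, was 0.0458 with ranks among shared sites, and ran from −6.87 to 14.8 with 1 library left out, again without G12V replicates 2 and 1. At the CTCF site 15266 bp upstream of TNFRSF10B the difference was −21.3, and ran from −50.2 without G12V replicate 2 to 7.64 without G12V replicate 1. The cause of these changes was not tested. With a replicate block, the p53 percentile difference was 38.4 (exact sign-flip test, p = 0.5, the smallest that 2 pairs allow). The labels share replicate numbers but do not say that a number marks a shared day or batch, and no call changed with the block. The shallow p53 G12V replicate 1 limits statements on the weaker sites.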
